A study of Mus musculus with 62 samples.

Results

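Type I interferon response genes were described across 16 groups of mouse brain CD11b+ cells, which the series title calls microglia. They were 44 genes named by symbol, of 53801 gene identifiers in the deposited count matrix. The 44 symbols each matched 1 identifier, and the 44 genes passed the filter on low counts, which left 19881 genes for testing. CD11b is a surface integrin of microglia and other myeloid cells, so a sort on it can also hold monocytes and neutrophils.

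Mice had 4 genotypes. APPPS1_NLRP3 mice carried the APP/PS1 transgenes and lacked Nlrp3, and APPPS1 mice carried the transgenes with Nlrp3 present. NLRP3 is the submitters' label for mice without Nlrp3 (Nlrp3-/-) and without the transgenes, and WT mice had neither change. APP/PS1 transgenes encode mutant human proteins behind inherited Alzheimer's disease and lead to amyloid plaques in the brain. The labels used here name neither the promoter of the transgenes nor the mouse strain. Each genotype was sampled at 4, 6 and 12 months (4m, 6m, 12m), and at 12 months there was a further set whose titles carry Mxo4, a tag that the labels do not spell out. Groups held 3 to 5 libraries, and the labels do not say that libraries came from separate animals, so p-values here reflect the spread of the libraries alone.

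Type I interferons act through the receptor subunits IFNAR1 and IFNAR2 and the kinases JAK1 and TYK2. These activate a transcription factor that includes STAT2 and IRF9 and binds interferon-stimulated response elements in the promoters of induced genes. The induced genes encode regulators that amplify or stop the signal, sensors of viral nucleic acid and proteins that block viral replication, and microglia with raised levels of such genes have been described near amyloid plaques and in the aged brain.

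Microglia markers were present in each of the 61 libraries used (Tmem119 lay between 1026 and 2696 CPM). CPM values were counts scaled to the effective library size, the library's counts in tested genes times its scaling factor (TMM). These factors ran between 0.76 (APPPS1_12m replicate 41) and 1.13 (NLRP3_6m replicate 32). Library totals ran between 1394435 and 27604393 counts with a median of 18438698, and 1 further APPPS1_6m library, replicate 21 with 659 counts, was left out. Nlrp3 itself did not exceed 2.17 CPM in the 31 libraries from Nlrp3-/- mice, and was 57.9 to 262 CPM in the 30 others. Sex was not labelled. Judged from Xist and Y-linked counts, APPPS1_NLRP3_12m and NLRP3_12m libraries were male and APPPS1_12m and WT_12m libraries were female, so Nlrp3 genotype and sex cannot be told apart among the untagged 12-month libraries, where each transgene comparison was within 1 sex. All 4-month libraries, APPPS1_6m and WT_6m were female. Sexes were mixed in APPPS1_NLRP3_6m (2 female, 3 male), NLRP3_6m (3 and 1) and each group of the Mxo4 set: APPPS1_NLRP3 (2 and 1), APPPS1 (1 and 3), NLRP3 (1 and 2) and WT (2 and 1).

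The core letters of the response element were looked for in the promoters. In the RefSeq promoter table (GRCm38.p6), 35 of the 44 genes had an entry. The letters GAAANNGAAA, read on both strands, occurred within 250 bases upstream of the start in 16 of these 35 promoters (45.7%), against 3.46% of 27025 gene symbols with a promoter. TTCNNNGAA, the core of a STAT dimer site, occurred in 5 of 35 (14.3%), against 8.13% of the 27025. A match describes letters and is not a binding site. The windows below set 4 genes that rose with the transgenes at 12 months beside the 2 that fell, to show that the letters occur in both, each with GAAANNGAAA or its reverse complement in capitals, 5′ to 3′ on the gene's strand.
Ifit3 (chr19:34583348-34583441, plus strand): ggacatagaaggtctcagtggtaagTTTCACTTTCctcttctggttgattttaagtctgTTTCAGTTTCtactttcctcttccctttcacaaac
Isg15 (chr4:156200850-156200921, minus strand): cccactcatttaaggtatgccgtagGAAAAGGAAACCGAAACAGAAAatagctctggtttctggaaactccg
Oas1a (chr5:120907526-120907570, minus strand): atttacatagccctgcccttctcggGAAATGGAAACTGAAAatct
Bst2 (chr8:71537562-71537627, minus strand): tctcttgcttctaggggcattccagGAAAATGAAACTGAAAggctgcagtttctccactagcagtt
Gbp3 (chr3:142559974-142560039, plus strand): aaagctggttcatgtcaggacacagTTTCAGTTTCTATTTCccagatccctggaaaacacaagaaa
Gbp7 (chr3:142530258-142530317, plus strand): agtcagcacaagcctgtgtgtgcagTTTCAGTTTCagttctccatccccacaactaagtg
The Isg15, Oas1a, Bst2 and Gbp3 windows hold overlapping copies, and the Ifit3 window holds a pair of copies apart from each other. Ifit3b, a near copy of Ifit3 on the same chromosome (chr19:34607744-34607837), had the same window letter for letter, and reads shared between these genes may have been split or lost in counting, so their separate levels are uncertain. The same holds for Oas1a beside Oas1g, Ifi204 beside Ifi209 and Mndal, Slfn8 beside Slfn9, Gbp2 beside Gbp2b, Trim30a beside Trim30d, Ifitm2 beside Ifitm3 and Ifit1 beside its Ifit1bl copies.

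Per exon length, the genes covered a wide range. In WT_12m libraries the highest mean was that of Lgals3bp, a secreted glycoprotein that binds galectins, at 57.4 CPM per kb of exon. Next came Bst2 (tetherin, which holds budding virus at the cell surface) at 46.6 and Ifitm3 (which blocks fusion of virus with endosomes) at 42.7 CPM per kb. The lowest were Ifi44 at 0.516 and Oas3 at 0.0969 CPM per kb. Lgals3bp lies at chr11:118392751-118402092 and Ifi27l2a at chr12:103442167-103443680, and the guanylate-binding protein genes Gbp7 and Gbp3 at chr3:142530342-142550149 and chr3:142560026-142573209 (GRCm38, gene bounds). In APPPS1_12m libraries the order at the top was Lgals3bp at 321, Ifi27l2a at 303, Ifitm3 at 206 and Bst2 at 134 CPM per kb. Ifi27l2a, a small interferon-induced protein, thus ranked 2 of 44 in APPPS1_12m and 8 of 44 in WT_12m, and Gbp7 ranked 26 in APPPS1_12m and 9 in WT_12m.

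**Figure D1:**
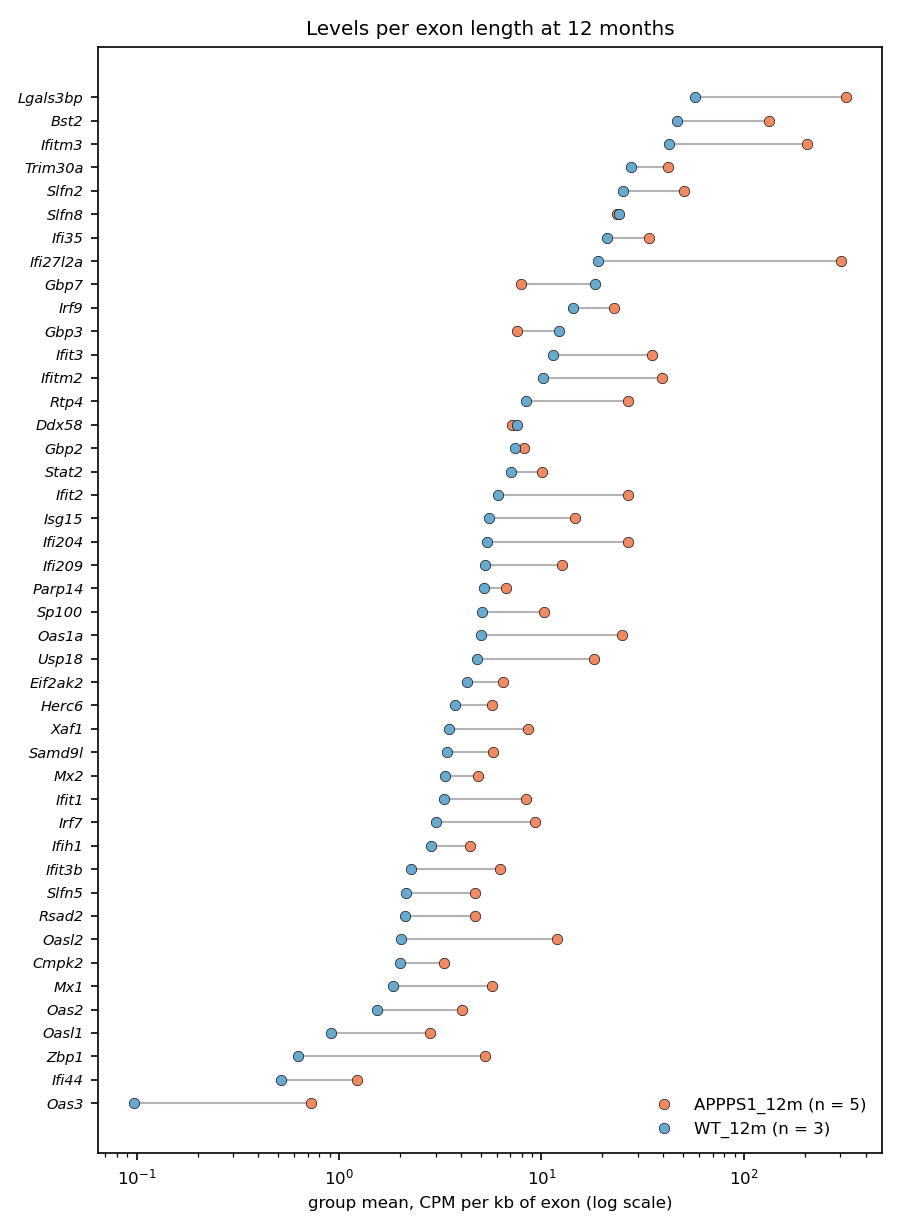
Group mean of each gene in CPM per kb of exon (log axis) in APPPS1_12m (orange, n = 5) and WT_12m (blue, n = 3), with genes ordered by the WT_12m mean. Ifi27l2a, Zbp1 and Oas3 show the widest gaps to the right, and for Gbp7 and Gbp3 the APPPS1_12m point lies to the left.

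The mean of log2(CPM + 1) over the 44 genes gives a description of each library, with no test. At 4 months it was 4.42 ± 0.42 in APPPS1_NLRP3 (n = 4), 4.08 ± 0.14 in APPPS1 (n = 3), 4.32 ± 0.10 in NLRP3 (n = 4) and 4.17 ± 0.13 in WT (n = 4, SD throughout). At 6 months it was 4.88 ± 0.24 in APPPS1_NLRP3 (n = 5), 4.67 ± 0.25 in APPPS1 (n = 3), 4.14 ± 0.24 in NLRP3 (n = 4) and 4.39 ± 0.21 in WT (n = 5). At 12 months it was 5.06 ± 0.13 in APPPS1_NLRP3 (n = 4), 5.36 ± 0.27 in APPPS1 (n = 5), 4.00 ± 0.10 in NLRP3 (n = 4) and 4.23 ± 0.08 in WT (n = 3). The groups with and without the transgenes overlapped at 4 months, overlapped at 6 months where Nlrp3 was present, and lay apart at 12 months. In the Mxo4 set it was 4.99 ± 0.21 in APPPS1_NLRP3 (n = 3), 4.67 ± 0.57 in APPPS1 (n = 4), 4.13 ± 0.15 in NLRP3 (n = 3) and 4.36 ± 0.12 in WT (n = 3). The 30 libraries without the transgenes stayed between 3.86 and 4.65 at every age.

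**Figure D2:**
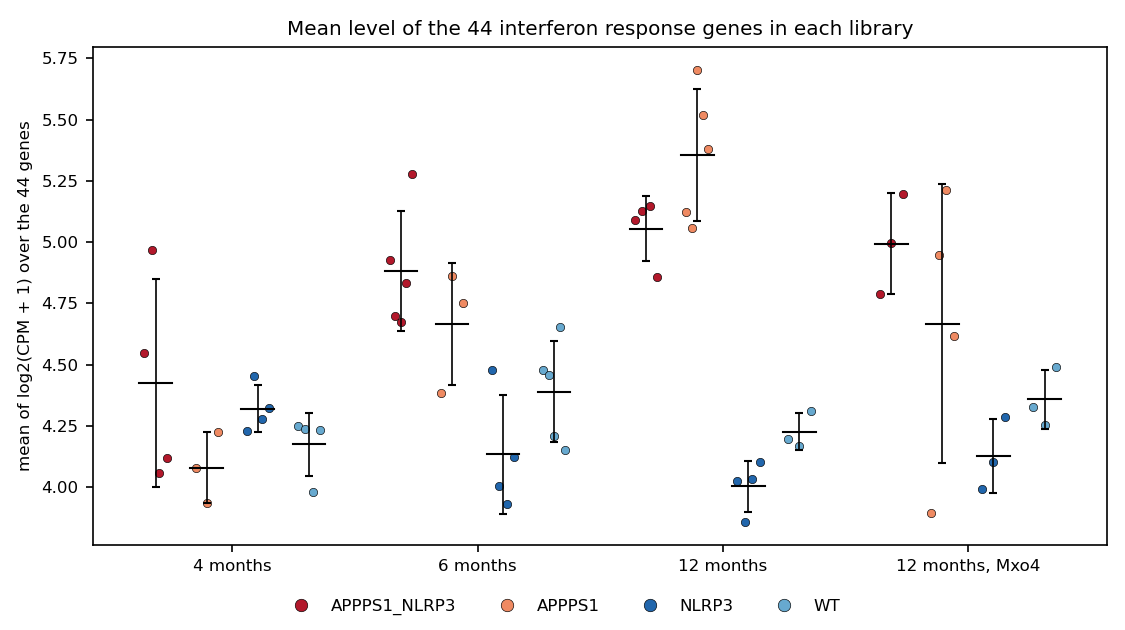
Mean of log2(CPM + 1) over the 44 genes in each library (points), with group mean and SD (bars), by age set and genotype. The APPPS1_NLRP3 and APPPS1 points lie above the NLRP3 and WT points at 12 months, and 1 APPPS1 point of the Mxo4 set lies at 3.89, among the lowest of all libraries.

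The effect of the transgenes at 12 months was tested within mice with Nlrp3 and, in separate libraries, within mice without it. Most of the interferon response genes were higher with the transgenes in both settings, and the guanylate-binding protein genes Gbp3 and Gbp7 were lower in both. In APPPS1_12m minus WT_12m, 34 genes were called higher and 2 lower (adjusted p under 0.05), where 11.5% of all tested genes were called higher and 6.92% lower. Their median log2 difference was 1.30, against -0.07 for all tested genes. In APPPS1_NLRP3_12m minus NLRP3_12m, 33 genes were called higher and 2 lower, where 5.84% and 3.07% of all tested genes were called higher and lower, and the median was 1.09, against -0.04. These comparisons share no library but came from 1 fit, and 29 genes were called higher in both, which is 85.3% of the 34 and 87.9% of the 33. Since most of the 44 genes were called in each, a large overlap was likely in any case. With Nlrp3, every transgene library lay above every control library in 31 genes and below in 2 (8.09% and 6.83% of all genes). Without Nlrp3 this held in 36 and 3 genes (7.09% and 3.53%). Of 8 microglia markers, 1 was called higher and 2 lower with Nlrp3, and 0 higher and 3 lower without it. In bulk samples, fewer cells of a type and less RNA per cell cannot be told apart.

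Other genes moved with the transgenes in the same libraries. All 10 disease-associated microglia markers, genes such as Cst7 that microglia near plaques induce, were called higher in both 12-month comparisons. Their summed level was 8930 to 14443 CPM in APPPS1_NLRP3_12m and 11794 to 26837 CPM in APPPS1_12m, against 2227 to 2812 CPM in NLRP3_12m and 1842 to 2446 CPM in WT_12m. Plasmacytoid dendritic cells are strong producers of type I interferon. Of their 5 listed markers, 3 were tested and 1, Cox6a2, was called higher in both comparisons. Their summed level was 46.02 to 51.2 CPM in APPPS1_NLRP3_12m and 38.3 to 103 CPM in APPPS1_12m, against 8.13 to 41.2 CPM in NLRP3_12m and 7.69 to 16.9 CPM in WT_12m. Cox6a2 had 26.3 to 34.6 CPM in APPPS1_NLRP3_12m and 26.6 to 77.5 CPM in APPPS1_12m, against 1.51 to 3.51 CPM in NLRP3_12m and 2.32 to 3.01 CPM in WT_12m. In the transgene groups a large part of the sum was thus Cox6a2. NLRP3_12m replicate 47 reached a sum of 41.2 CPM with Cox6a2 no higher than 3.51 CPM. Whether the number of these cells differed was not tested. Ly6d and Klk1, which were not tested, were both at 0 in APPPS1_NLRP3_12m. Of 6 monocyte markers 2 were called higher in APPPS1_12m minus WT_12m (sums of 38.5 to 311 and 55.6 to 99.7 CPM, medians of 51.3 and 57.02 CPM), with replicate 38 at 311 CPM and the other 4 APPPS1_12m libraries at 38.5 to 87.1 CPM, and 0 in APPPS1_NLRP3_12m minus NLRP3_12m. Of 12 genes that respond to handling, 1 was called lower in the comparison without Nlrp3 and 0 in that with it. The part of any of these in the results was not tested.

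**Figure D3:**
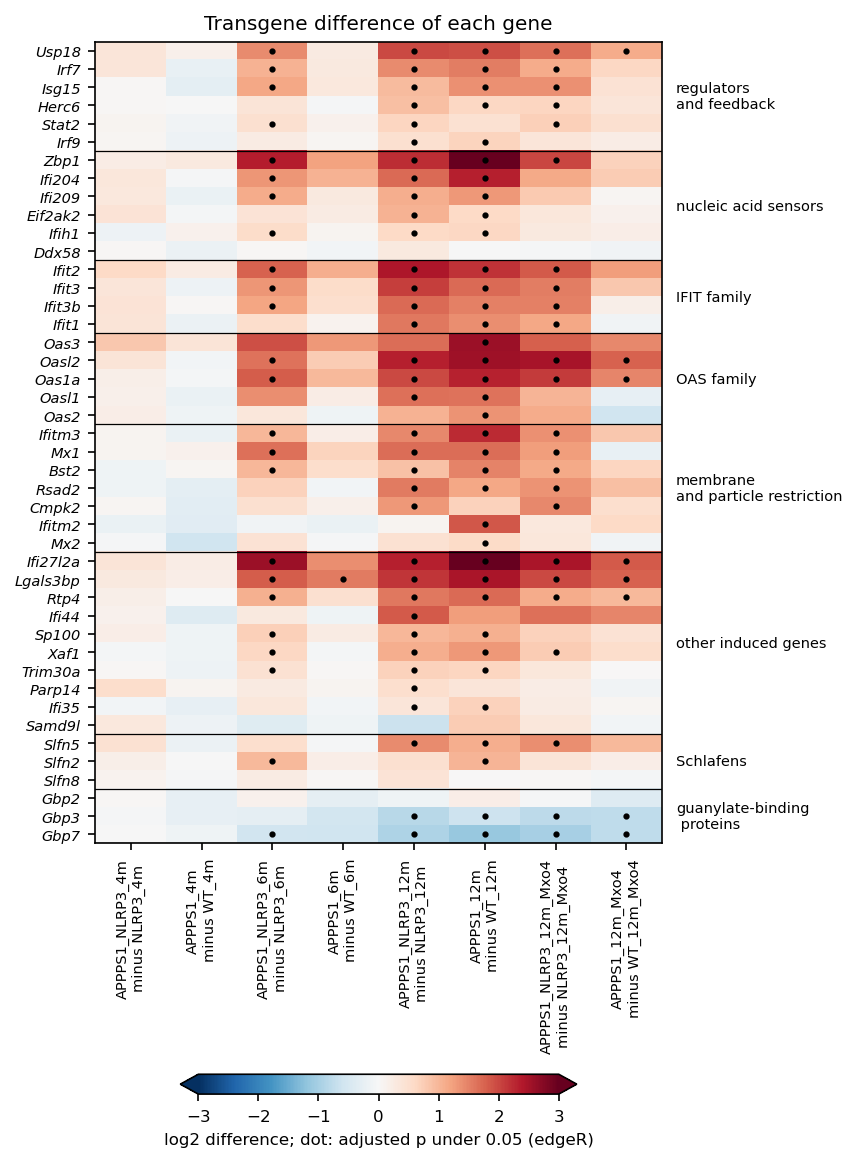
Log2 difference of each gene (rows, by role) with the transgenes in the 8 comparisons (columns), from blue (lower) to red (higher), with a dot where the edgeR adjusted p was under 0.05. The columns at 12 months are red for most rows, the columns at 4 months are pale, and Gbp3 and Gbp7 at the bottom are blue from 6 months on.

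Of 6 regulators and feedback genes at 12 months, 5 were called higher with Nlrp3 (median log2 difference 1.02) and 6 without it (median 0.93). Irf7, the factor that amplifies interferon production, stood at 23, 24.9, 36.2 and 26.5 CPM in APPPS1_NLRP3_12m and at 7.78, 16.2, 11.9 and 9.93 CPM in NLRP3_12m. It stood at 19.97, 25.5, 58.9, 40.7 and 30.4 CPM in APPPS1_12m and at 10.5, 13 and 10.7 CPM in WT_12m. Neither pair overlapped, and APPPS1_12m spread widest. The log2 difference was 1.42 ± 0.30 without Nlrp3 (SE, edgeR adjusted p = 0.0011) and 1.53 ± 0.31 with Nlrp3 (adjusted p = 2.7e-04). Usp18, which takes ISG15 off proteins and damps the receptor, had 46.3, 40.1, 44.7 and 32 CPM in APPPS1_NLRP3_12m, against 10.3, 11.9, 9.49 and 10.1 CPM in NLRP3_12m. It had 33.1, 36.4, 60.3, 51 and 72.4 CPM in APPPS1_12m, against 14.3, 10.2 and 15.6 CPM in WT_12m. Each transgene library lay above every control library, with differences of 1.98 ± 0.32 without Nlrp3 (edgeR adjusted p = 2.3e-05) and 1.93 ± 0.33 with it (adjusted p = 1.9e-05). Isg15, the ubiquitin-like modifier itself, was expressed at 9.71, 8.84, 15.3, 12 and 9.58 CPM in APPPS1_12m and at 2.51, 5.01 and 4.97 CPM in WT_12m, a difference of 1.37 ± 0.31 (edgeR adjusted p = 7.8e-04). Isg15 stood at 9.90, 6.99, 8.62 and 10.1 CPM in APPPS1_NLRP3_12m and at 3.43, 5.62, 4.57 and 5.92 CPM in NLRP3_12m. Without Nlrp3 its difference was 0.94 ± 0.30 (adjusted p = 0.035), a call lost in 5 of the 8 fits that left out 1 library. Irf9 and Stat2 encode parts of the factor that binds the response element. Irf9 differed by 0.48 ± 0.12 without Nlrp3 and 0.67 ± 0.12 with it (edgeR adjusted p = 0.0055 and 4.6e-05). Stat2 differed by 0.66 ± 0.17 without Nlrp3 (adjusted p = 0.01) and by 0.46 ± 0.18 with it, which did not pass (adjusted p = 0.061).

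Among nucleic acid sensors, 5 of 6 were called higher in both settings, and they differed widely in size. Zbp1, a sensor of Z-form nucleic acid that can start cell death, stood at 14.1, 12, 15.3 and 10.1 CPM in APPPS1_NLRP3_12m, against 3.25, 0.703, 3.13 and 2.63 CPM in NLRP3_12m. It stood at 13.6, 11.2, 26.8, 22.7 and 18.5 CPM in APPPS1_12m, against 1.80, 2.27 and 2.55 CPM in WT_12m. No control library reached the lowest transgene library, and Zbp1 rose by 2.20 ± 0.40 without Nlrp3 (edgeR adjusted p = 1.1e-04) and 3.06 ± 0.43 with it (adjusted p = 6.5e-07) on the log2 scale. Ifi204, a PYHIN protein that binds DNA, rose by 1.70 ± 0.35 without Nlrp3 and 2.34 ± 0.37 with it (edgeR adjusted p = 6.5e-04 and 5.0e-06). Ifih1, the RNA sensor MDA5, rose by 0.61 ± 0.15 without Nlrp3 and 0.62 ± 0.15 with it, and Eif2ak2, the kinase PKR, by 1.04 ± 0.18 without Nlrp3 and 0.60 ± 0.19 with it (edgeR adjusted p = 0.0044, 0.0021, 7.2e-05 and 0.02). Ddx58, the RNA sensor RIG-I, was not called. It had 41.5, 49.9, 63.2, 51.5 and 46.8 CPM in APPPS1_12m and 51.1, 54.1 and 54.5 CPM in WT_12m, which overlapped, with a difference of -0.02 ± 0.11 (edgeR adjusted p = 0.94), and 0.28 ± 0.11 without Nlrp3 (adjusted p = 0.11). MDA5 and RIG-I are related sensors, and the difference between their genes was not tested.

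The IFIT and OAS families had the highest medians of the roles. IFIT proteins bind foreign RNA ends, and the 4 genes were called higher in both settings (median log2 difference 1.90 without Nlrp3 and 1.61 with it). Ifit3 stood at 53.1, 75.7, 52.7 and 56.8 CPM in APPPS1_NLRP3_12m and at 14.2, 9.13, 13.3 and 14.9 CPM in NLRP3_12m. It stood at 45.2, 41.7, 83.8, 68.1 and 66.8 CPM in APPPS1_12m and at 23.1, 19.5 and 16.8 CPM in WT_12m, so neither pair overlapped. Ifit3 rose by 2.08 ± 0.35 without Nlrp3 and 1.71 ± 0.36 with it, Ifit2 by 2.43 ± 0.39 without Nlrp3 and 2.17 ± 0.41 with it, and Ifit1 by 1.59 ± 0.30 without Nlrp3 and 1.40 ± 0.30 with it (edgeR adjusted p at most 5.3e-04). OAS enzymes make oligoadenylates that switch on RNase L, and the OAS-like genes Oasl1 and Oasl2 belong to the same family. Of 5, 3 were called higher without Nlrp3 (median 1.66) and 5 with it (median 2.31). Oasl2 had 58.6, 58.8, 75.7 and 53.2 CPM in APPPS1_NLRP3_12m, against 11.5, 7.03, 12.6 and 15.2 CPM in NLRP3_12m. It had 52.7, 67.9, 104, 87.5 and 66.8 CPM in APPPS1_12m, against 11.9, 13 and 13.8 CPM in WT_12m. The lowest transgene library held 52.7 CPM and the highest control 15.2 CPM, and the differences were 2.33 ± 0.36 without Nlrp3 and 2.54 ± 0.39 with it (edgeR adjusted p = 1.2e-05 and 2.2e-06). Oas1a rose by 1.97 ± 0.35 without Nlrp3 and 2.31 ± 0.36 with it (adjusted p = 7.0e-05 and 4.0e-06). Oas3 was sparse, at 0.971, 1.84, 13.4, 8.56 and 0.851 CPM in APPPS1_12m and 0.450, 0.310 and 1.30 CPM in WT_12m, with overlap between the groups. Its difference of 2.57 ± 0.89 (edgeR adjusted p = 0.035) was lost in 5 of 8 fits without 1 library.

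Of the 7 genes for membrane and particle restriction, 5 were called higher without Nlrp3 and 6 with it. Ifitm3 stood at 82.9, 65.3, 94.6 and 88.1 CPM in APPPS1_NLRP3_12m, against 27.9, 19, 35.5 and 36.4 CPM in NLRP3_12m. It stood at 110.2, 97.1, 152, 172 and 168 CPM in APPPS1_12m, against 27.4, 31.9 and 27.6 CPM in WT_12m, and the groups lay far apart in both pairs. The log2 differences were 1.43 ± 0.28 without Nlrp3 and 2.24 ± 0.30 with it (edgeR adjusted p = 2.8e-04 and 2.3e-07). Bst2 had 100.1, 80.7, 107 and 69.1 CPM in APPPS1_NLRP3_12m and 39.5, 61.8, 48.1 and 52.1 CPM in NLRP3_12m, then 136, 106, 115, 111 and 135 CPM in APPPS1_12m and 35.8, 48.6 and 42 CPM in WT_12m. Bst2 rose by 0.89 ± 0.20 without Nlrp3 and 1.49 ± 0.21 with it (edgeR adjusted p = 0.0015 and 4.4e-07), with no overlap. Mx1, a dynamin-like GTPase, rose by 1.68 ± 0.30 without Nlrp3 and 1.67 ± 0.31 with it, and Rsad2 (viperin) by 1.57 ± 0.33 without Nlrp3 and 1.17 ± 0.33 with it (edgeR adjusted p at most 0.0085). Ifitm2 was called with Nlrp3 and not without it. It stood at 13.6, 12.4, 10.3 and 10.2 CPM in APPPS1_NLRP3_12m and 9.46, 14.8, 13.8 and 9.93 CPM in NLRP3_12m, which overlapped, with a difference of 0.08 ± 0.26 (edgeR adjusted p = 0.91). It stood at 23.5, 15.5, 13.8, 53.3 and 23.6 CPM in APPPS1_12m and 6.50, 7.38 and 6.23 CPM in WT_12m, and rose by 1.87 ± 0.28 (adjusted p = 2.1e-06). The highest Ifitm2 value was that of APPPS1_12m replicate 38, whose neutrophil marker sum was 2464 CPM, against 40.05 to 174 CPM in the other 4 libraries of the group. Without that library the Ifitm2 difference was 1.48. In the pair without Nlrp3 the neutrophil sum was 59.8 to 361 CPM in APPPS1_NLRP3_12m and 126 to 1187 CPM in NLRP3_12m. The 1187 CPM was that of NLRP3_12m replicate 45, which also held the highest Ifitm2 value of its group, 14.8 CPM. That library had the lowest total of all, 1394435 counts. The part of neutrophils was not tested.

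Of the 10 other induced genes, 9 were called higher without Nlrp3 and 7 with it. Ifi27l2a had 56.4, 44.3, 103 and 51.2 CPM in APPPS1_NLRP3_12m and 7.90, 17.6, 14.3 and 13.7 CPM in NLRP3_12m, a rise of 2.34 ± 0.50 (edgeR adjusted p = 0.0012). It had 246, 77.1, 76.1, 90.00 and 212 CPM in APPPS1_12m and 6.88, 8.15 and 11.4 CPM in WT_12m, a rise of 3.98 ± 0.57 (adjusted p = 7.5e-07), the largest among the 44 genes in that comparison. A pair of the 5 APPPS1_12m libraries stood above 200 CPM and the other 3 between 76.1 and 90.00 CPM. Lgals3bp had 811, 423, 890.1 and 491 CPM in APPPS1_NLRP3_12m, against 145, 122, 149.7 and 178 CPM in NLRP3_12m. It had 858, 951, 1147, 883 and 727 CPM in APPPS1_12m, against 139, 183 and 169 CPM in WT_12m. No values overlapped, and Lgals3bp rose by 2.14 ± 0.29 without Nlrp3 and 2.46 ± 0.32 with it (edgeR adjusted p = 8.0e-07 and 1.4e-07). Rtp4, a transporter chaperone, rose by 1.59 ± 0.27 without Nlrp3 and 1.70 ± 0.29 with it (adjusted p = 6.0e-05 and 1.4e-05). Samd9l was called in neither setting. It stood at 9.17, 8.27, 7.90 and 5.74 CPM in APPPS1_NLRP3_12m and 10.5, 9.84, 13.6 and 12 CPM in NLRP3_12m, with every transgene library below every control library, and its difference was -0.65 ± 0.34 (edgeR adjusted p = 0.25). With Nlrp3 it stood at 33.4, 15.4, 22.8, 45.4 and 38.7 CPM in APPPS1_12m and 18.6, 14.2 and 22.9 CPM in WT_12m, with a difference of 0.77 ± 0.33 (adjusted p = 0.1).

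Guanylate-binding proteins are GTPases that coat the compartments of intracellular pathogens and respond strongly to interferon-gamma. Gbp7 was lower with the transgenes, at 39, 49, 35.9 and 29.2 CPM in APPPS1_NLRP3_12m, against 79.5, 49.9, 62.9 and 81.7 CPM in NLRP3_12m. It was also lower with Nlrp3 present, at 42.8, 34.4, 63.5, 48.8 and 31.7 CPM in APPPS1_12m, against 93, 115 and 102 CPM in WT_12m. The groups did not overlap in either pair, and Gbp7 fell, with log2 differences of -0.93 ± 0.20 without Nlrp3 and -1.13 ± 0.20 with it (edgeR adjusted p = 0.0014 and 3.3e-05). Gbp3 had 17.1, 20.1, 20.2 and 14.4 CPM in APPPS1_NLRP3_12m and 32.8, 40.7, 22 and 31.3 CPM in NLRP3_12m, then 26.3, 16.9, 30.9, 28.6 and 21.1 CPM in APPPS1_12m and 40.4, 37.7 and 41.5 CPM in WT_12m. Gbp3 fell in both, with log2 differences of -0.82 ± 0.21 without Nlrp3 and -0.61 ± 0.21 with it (edgeR adjusted p = 0.0072 and 0.03). Gbp2 was called in neither setting, with differences of -0.13 ± 0.23 without Nlrp3 and 0.21 ± 0.23 with it. The windows above show that the Gbp3 and Gbp7 promoters hold the same letters GAAANNGAAA as those of genes that rose. Of the 3 Schlafen genes, which restrict growth and viral translation, Slfn5 rose by 1.42 ± 0.30 without Nlrp3 and 1.09 ± 0.30 with it (edgeR adjusted p = 9.2e-04 and 0.0074). Slfn2 rose with Nlrp3 by 1.02 ± 0.26 (adjusted p = 0.0041) and differed by 0.49 ± 0.25 without it (adjusted p = 0.25). Slfn8, at 68.5 to 120.0 CPM in APPPS1_12m and 87.8 to 105 CPM in WT_12m, was called in neither.

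Of the 36 calls with Nlrp3 at 12 months, 28 held in every fit that left out 1 library, and of the 35 without Nlrp3 also 28. With libraries of the second title number 1 alone, a number in the titles that takes 2 values and that the labels do not explain, 17 genes were called with Nlrp3 (16 higher and 1 lower, where 2.31% and 0.777% of all genes were). With number 2 alone 13 were called without Nlrp3 (12 higher and 1 lower, where 1.41% and 0.456% were).

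**Figure D4:**
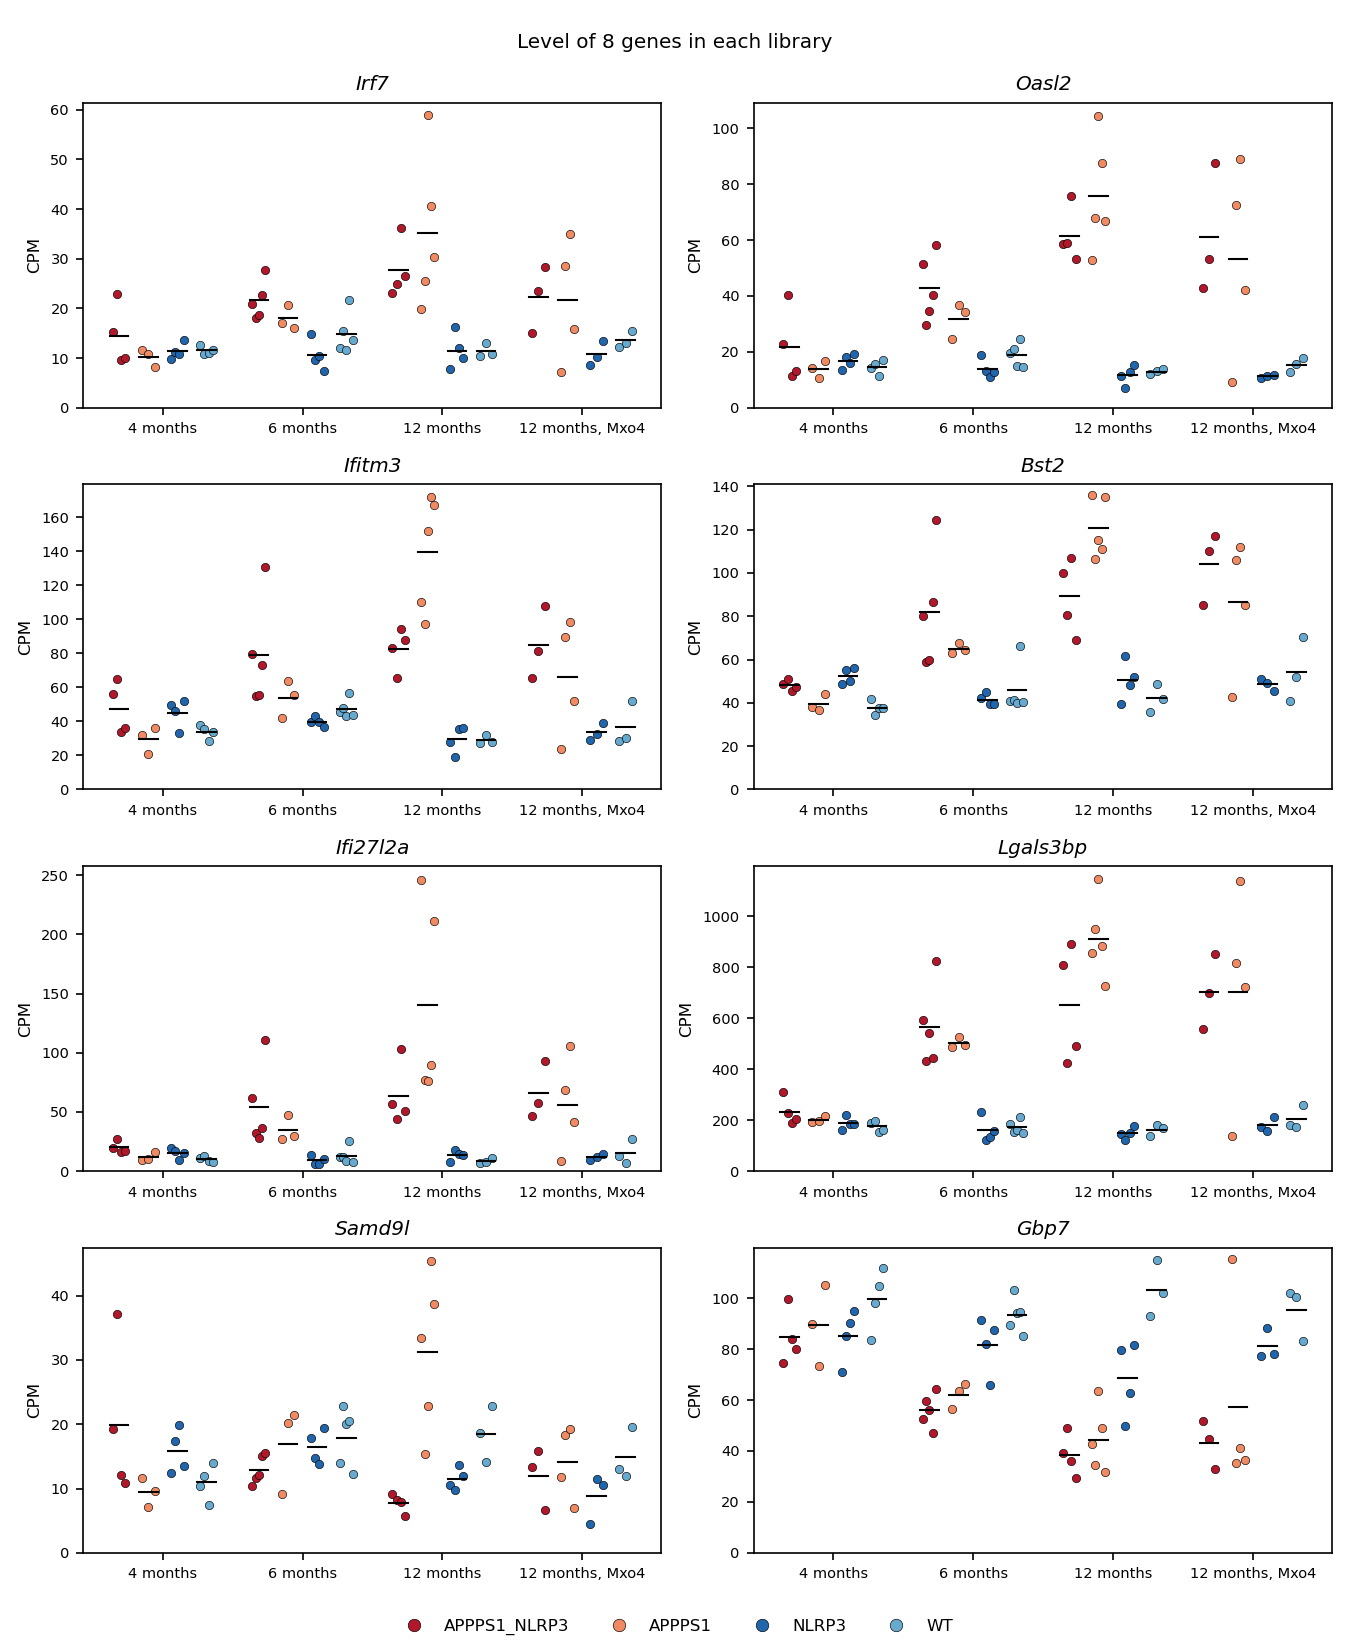
CPM of 8 genes in each library (points), with the group mean (bar), by age set and genotype. Irf7, Oasl2, Ifitm3, Bst2, Ifi27l2a and Lgals3bp are high in the APPPS1_NLRP3 and APPPS1 libraries of 12 months, Samd9l reaches its highest values in APPPS1_12m libraries, with overlap with WT_12m, and Gbp7 is lower in the transgene libraries at 12 months, with 1 APPPS1 library of the Mxo4 set above WT.

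At 6 months the transgenes were set against their controls in the same way. Without Nlrp3, APPPS1_NLRP3_6m minus NLRP3_6m had 23 of the 44 genes called higher and 1 lower, where 6.22% of all tested genes were called higher and 1.97% lower. With Nlrp3, APPPS1_6m minus WT_6m had 1 called higher and 0 lower, where 2.12% and 0.986% of all genes were called higher and lower. At an unadjusted p under 0.05 there were 32 genes without Nlrp3 and 11 with it (21.2% and 17.5% of all genes), and DESeq2 called 25 and 4. The groups did not overlap in 23 genes above and 1 below without Nlrp3 (6.96% and 4.02% of all genes), and in 5 above and 1 below with it (8.29% and 6.4%). Medians were 0.65 and 0.17, against -0.04 and -0.02 for all tested genes. Of the 23 genes, 22 were also among the 34 called with Nlrp3 at 12 months (95.7% of the 23 and 64.7% of the 34), in libraries that the comparisons do not share. With 34 of the 44 genes called at 12 months, a large overlap was likely in any case. Disease-associated microglia markers were called higher at 6 months in 10 of 10 without Nlrp3 and in 9 of 10 with it. Their sum was 6154 to 10261 CPM in APPPS1_NLRP3_6m and 6359.8 to 7934 CPM in APPPS1_6m, against 1945 to 2568 CPM in NLRP3_6m and 1713 to 2496 CPM in WT_6m. In APPPS1_6m minus WT_6m other sums also lay apart, with neurons at 129 to 252 CPM in APPPS1_6m and 24.7 to 105 CPM in WT_6m (0 of 7 called). Oligodendrocyte markers summed to 176 to 372 CPM in APPPS1_6m and 65.3 to 160 CPM in WT_6m, with calls not given. The handling-response sum was 10026 to 11061 CPM in APPPS1_6m and 14032 to 24142 CPM in WT_6m (3 of 12 called lower). Monocyte markers summed to 55.5 to 73.5 CPM in APPPS1_6m and 86.8 to 119 CPM in WT_6m (0 of 6 called). In APPPS1_NLRP3_6m erythroid markers summed to 16.7 to 100.2 CPM, against 113 to 166 CPM in NLRP3_6m (0 of 5 called). Plasmacytoid dendritic cell markers summed to 24.3 to 37.1 CPM in APPPS1_NLRP3_6m and 22.02 to 36.8 CPM in APPPS1_6m, against 6.98 to 15.2 CPM in NLRP3_6m and 5.59 to 10.7 CPM in WT_6m. Calls for this list are not given at 6 months, and its sum in the transgene groups at 12 months was in large part Cox6a2. The part of these lists was not tested.

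Lgals3bp was the gene called in both 6-month comparisons. It had 595, 431, 541, 444 and 826 CPM in APPPS1_NLRP3_6m, against 232, 121, 135 and 156 CPM in NLRP3_6m. It had 488, 528 and 497 CPM in APPPS1_6m, against 184, 155, 162, 213 and 150.3 CPM in WT_6m. The lowest transgene library held 431 CPM and the highest control library 232 CPM, and Lgals3bp rose by 1.82 ± 0.28 without Nlrp3 and 1.55 ± 0.28 with it (edgeR adjusted p = 7.3e-06 and 3.3e-04). Ifi27l2a stood at 62.2, 32.4, 28.1, 36.7 and 111 CPM in APPPS1_NLRP3_6m and 13.8, 6.33, 5.94 and 10.3 CPM in NLRP3_6m, a rise of 2.58 ± 0.47 (adjusted p = 1.4e-04). With Nlrp3 it stood at 27.2, 47.8 and 29.5 CPM in APPPS1_6m and 11.7, 11.8, 8.76, 25.8 and 7.47 CPM in WT_6m. Every APPPS1_6m value was above every WT_6m value, by a narrow margin over WT_6m replicate 19 at 25.8 CPM, and the difference of 1.40 ± 0.47 did not pass (edgeR adjusted p = 0.086). Without WT_6m replicate 19, 7 of the 44 genes were called higher with Nlrp3 at 6 months, where 2.06% of all genes were, and with sex as a further term 5 were, where 2.22% of all genes were.

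Irf7 at 6 months had 20.8, 18, 18.7, 22.8 and 27.7 CPM in APPPS1_NLRP3_6m and 14.8, 9.64, 10.5 and 7.41 CPM in NLRP3_6m, a rise of 1.05 ± 0.28 with no overlap (edgeR adjusted p = 0.0094). It had 17.1, 20.7 and 16.1 CPM in APPPS1_6m and 12, 15.4, 11.7, 21.7 and 13.6 CPM in WT_6m, which overlapped, with a difference of 0.30 ± 0.29 (adjusted p = 0.65). Oasl2 rose without Nlrp3 by 1.62 ± 0.33 (adjusted p = 6.0e-04), with 51.3, 29.6, 34.7, 40.5 and 58.1 CPM in APPPS1_NLRP3_6m and 18.9, 13.2, 10.8 and 12.8 CPM in NLRP3_6m. With Nlrp3, Oasl2 had 24.4, 36.8 and 34.3 CPM in APPPS1_6m and 19.5, 20.9, 14.9, 24.4 and 14.7 CPM in WT_6m, and the difference of 0.76 ± 0.34 did not pass (edgeR adjusted p = 0.22). Zbp1 rose without Nlrp3 by 2.35 ± 0.38, Oas1a by 1.81 ± 0.32, Ifit2 by 1.76 ± 0.36 and Mx1 by 1.65 ± 0.28 (edgeR adjusted p at most 6.2e-04), and with Nlrp3 their differences were 1.20 ± 0.37, 0.97 ± 0.32, 1.09 ± 0.37 and 0.66 ± 0.28 (adjusted p = 0.0588, 0.089, 0.091 and 0.2). Gbp7 fell without Nlrp3, at 52.4, 59.7, 56.2, 47.1 and 64.3 CPM in APPPS1_NLRP3_6m, against 91.2, 82.1, 66 and 87.5 CPM in NLRP3_6m, a log2 difference of -0.57 ± 0.19 (edgeR adjusted p = 0.0462). With Nlrp3 the Gbp7 difference was -0.61 ± 0.21 (adjusted p = 0.095), and no APPPS1_6m value reached the lowest WT_6m value. By role, the calls without Nlrp3 were 4 of 6 regulators, 4 of 6 sensors, 3 of 4 IFIT, 2 of 5 OAS, 3 of 7 restriction, 6 of 10 other and 1 of 3 Schlafen genes.

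At 4 months 0 of the 44 genes were called in either transgene comparison. An unadjusted p under 0.05 was found for 2 genes in APPPS1_NLRP3_4m minus NLRP3_4m and 1 in APPPS1_4m minus WT_4m (4.43% and 2.52% of all genes), DESeq2 called 0 in each, and 0.0101% and 0.0251% of all tested genes were called. The smallest p among the 44 genes in the first was that of Parp14, an ADP-ribosyltransferase, with a difference of 0.52 ± 0.16 (edgeR adjusted p = 0.67), and in the second that of Mx2, with -0.60 ± 0.18 (adjusted p = 1.0). The groups did not overlap in 1 gene above and 0 below without Nlrp3 (1.82% and 1.94% of all genes), and in 0 above and 3 below with it (3.39% and 2.45%). APPPS1_NLRP3_4m replicate 11 stood above its group mean in 43 of the 44 genes. Oasl2, for example, had 22.8, 40.4, 11.4 and 13 CPM in APPPS1_NLRP3_4m, with replicate 11 the highest, against 13.4, 18.1, 15.8 and 19 CPM in NLRP3_4m. The difference was 0.40 ± 0.34 (edgeR adjusted p = 1.0).

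In the Mxo4 set, 22 genes were called higher and 2 lower in APPPS1_NLRP3_12m_Mxo4 minus NLRP3_12m_Mxo4, where 3.57% and 1.69% of all genes were called higher and lower. In APPPS1_12m_Mxo4 minus WT_12m_Mxo4, 6 were called higher and 2 lower, where 3.39% and 1.75% of all genes were. Medians were 1.11 and 0.43, against -0.05 and -0.03 for all genes. The groups did not overlap in 33 genes above and 2 below without Nlrp3 (12.9% and 14.5% of all genes), and in 0 above and 1 below with it (4.31% and 5.46%). Disease-associated microglia markers were called higher in 10 of 10 in both comparisons. Without Nlrp3 their sum was 12922 to 16197 CPM in APPPS1_NLRP3_12m_Mxo4 and 2062 to 2684 CPM in NLRP3_12m_Mxo4. The handling-response sum was 23052 to 27155 CPM in APPPS1_NLRP3_12m_Mxo4 and 31001 to 41040 CPM in NLRP3_12m_Mxo4, with no overlap and 0 of 12 called. Plasmacytoid dendritic cell markers summed to 33.1 to 38.9 CPM in APPPS1_NLRP3_12m_Mxo4 and 3.77 to 7.42 CPM in NLRP3_12m_Mxo4. In the same order, monocyte sums were 34.1 to 60.2 and 64.05 to 83.2 CPM. Endothelial sums were 132 to 173 and 184 to 232 CPM, and erythroid sums 9.65 to 28.5 and 32.3 to 107.5 CPM. These sums did not overlap either, and calls for these lists are not given. The part of any of these lists was not tested. The libraries of APPPS1_12m_Mxo4 were uneven. Oasl2 had 9.06, 72.6, 88.9 and 42.1 CPM there and 12.9, 15.7 and 17.6 CPM in WT_12m_Mxo4, and Lgals3bp had 139, 818, 1139.7 and 724 CPM there and 180.2, 173 and 258 CPM in WT_12m_Mxo4. In each the first APPPS1_12m_Mxo4 value, replicate 56, lay below the lowest WT_12m_Mxo4 value, and the other 3 lay above the highest. Gbp7 showed the mirror image, with 115, 35.1, 41.2 and 36.6 CPM in APPPS1_12m_Mxo4 and 102, 101 and 83 CPM in WT_12m_Mxo4. Replicate 56 had 10.4 CPM of Cst7, a disease-associated microglia gene, and a summed level of those markers of 2043 CPM, below the 3 WT_12m_Mxo4 libraries (2261 to 4121 CPM). It was also the library of its group with the second title number 2.

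With all 4 libraries, Lgals3bp rose by 1.77 ± 0.32, Oasl2 by 1.76 ± 0.38, Ifi27l2a by 1.84 ± 0.52, Oas1a by 1.47 ± 0.36, Usp18 by 1.11 ± 0.33 and Rtp4 by 0.97 ± 0.29 (edgeR adjusted p at most 0.037). Of these 8 calls 2 held in every fit that left out 1 library. Without replicate 58, 2 genes were called higher and 0 lower, where 1.71% and 0.438% of all genes were. Without replicate 56, 20 genes were called higher and 2 lower, where 6.47% and 6.21% of all genes were, and the median was 0.63. Oasl2 then differed by 2.14, Lgals3bp by 2.14, Ifi27l2a by 2.22, Irf7 by 0.91 and Gbp7 by -1.29. With sex as a further term and all 4 libraries, 13 genes were called higher and 2 lower, where 4.05% and 2.15% of all genes were. In mice without Nlrp3, Oasl2 had 42.8, 53.2 and 87.6 CPM in APPPS1_NLRP3_12m_Mxo4 and 10.6, 11.3 and 11.8 CPM in NLRP3_12m_Mxo4, and rose by 2.47 ± 0.41 with no overlap (edgeR adjusted p = 4.5e-05). Ifi27l2a rose by 2.46 ± 0.56, Oas1a by 2.11 ± 0.39, Zbp1 by 2.01 ± 0.44, Lgals3bp by 1.97 ± 0.33 and Ifit2 by 1.83 ± 0.44 (edgeR adjusted p at most 0.005). Gbp7 and Gbp3 fell, with log2 differences of -1.0 ± 0.23 and -0.79 ± 0.24 (adjusted p = 0.0039 and 0.033). Every APPPS1_NLRP3_12m_Mxo4 library has the second title number 2, and leaving out its replicate 54 left 9 calls, all higher, where 2.32% of all genes were called higher.

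Over the 8 transgene comparisons, Lgals3bp was called higher in 6, and Ifi27l2a, Oas1a, Oasl2, Rtp4 and Usp18 in 5. Gbp7 was called lower in 5 and Gbp3 in 4. Ddx58, Gbp2, Samd9l and Slfn8 were called in 0, with an unadjusted p under 0.05 in 1 comparison each for Ddx58, Samd9l and Slfn8.

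Whether the transgene difference depended on Nlrp3 was tested as an interaction, the difference without Nlrp3 minus the difference with it. In the untagged 12-month libraries both groups without Nlrp3 were male and both groups with it were female. There a dependence on Nlrp3 cannot be told apart from a dependence on sex. By edgeR, 0 of the 44 genes were called at 4, 6 or 12 months or in the Mxo4 set, where 0.0%, 0.0201%, 0.00503% and 0.0% of all genes were called. Unadjusted, 1, 12, 5 and 6 genes had p under 0.05 (1.75%, 7.25%, 10.1% and 3.98% of all genes), and DESeq2 called 0, 0, 1 and 0. Medians were 0.26, 0.48, -0.11 and 0.39. At 6 months, the age at which 23 and 1 genes were called higher in the separate comparisons, the smallest p was that of Usp18, with an interaction of 1.15 ± 0.42 (edgeR adjusted p = 0.56). Usp18 had 34.9, 28, 29.6, 23.3 and 42.4 CPM in APPPS1_NLRP3_6m and 16.7, 24 and 20.7 CPM in APPPS1_6m, then 17.1, 8.22, 10.2 and 11.8 CPM in NLRP3_6m and 20.2, 16.1, 15.6, 20.5 and 12.2 CPM in WT_6m. Next were Trim30a at 0.42 ± 0.16 and Ifi35 at 0.42 ± 0.16. At 12 months the smallest p was that of Ifitm2, with -1.79 ± 0.38 (edgeR adjusted p = 0.0565), the gene that DESeq2 called with a log2 interaction of -1.83. The Ifitm2 values include APPPS1_12m replicate 38, at 53.3 CPM. Samd9l followed with -1.42 ± 0.47 and Ifi27l2a with -1.64 ± 0.70 (edgeR adjusted p = 0.23 and 0.39). In the Mxo4 set Mx1 had 1.49 ± 0.45, Ifit1 1.27 ± 0.45 and Oas2 1.71 ± 0.63, and at 4 months Mx2 had 0.56 ± 0.25, Parp14 0.44 ± 0.23 and Eif2ak2 0.46 ± 0.26 (edgeR adjusted p = 1.0 for each). The Mxo4 values include APPPS1_12m_Mxo4 replicate 56, and in that set each fit without 1 library also left 0 of the 44 genes called.

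Loss of Nlrp3 in transgenic mice was read from APPPS1_NLRP3 minus APPPS1. At 12 months 2 of the 44 genes were called lower and 0 higher, where 3.66% of all genes were called lower and 2.56% higher, and the median was -0.30. Samd9l had 9.17, 8.27, 7.90 and 5.74 CPM in APPPS1_NLRP3_12m, against 33.4, 15.4, 22.8, 45.4 and 38.7 CPM in APPPS1_12m. Without overlap between them, Samd9l fell with a log2 difference of -2.01 ± 0.32 (edgeR adjusted p = 1.2e-04). Ifitm2 fell with -1.10 ± 0.25 (adjusted p = 0.0062), again with no overlap, and without APPPS1_12m replicate 38 its difference was -0.71 (adjusted p = 0.0486). These groups differ in sex as well as in Nlrp3. With sex as a further term, Samd9l was at -1.82 (edgeR adjusted p = 0.0079) and Ifitm2 at -0.94 (adjusted p = 0.10). That term was estimated from the groups with both sexes, at 6 months and in the Mxo4 set. It cannot separate sex from Nlrp3 here, where each group held 1 sex. Of 7 endothelial markers 5 were called lower in the same comparison (sums of 93.4 to 200.1 CPM in APPPS1_NLRP3_12m and 276 to 427 CPM in APPPS1_12m). Of 7 neuronal markers 6 were called higher (52.1 to 316 and 12.2 to 63.8 CPM), and of 6 monocyte markers 2 were called lower (38.8 to 82.4 and 38.5 to 311 CPM). Of 12 handling-response genes 4 were called lower (7931 to 11915 and 14787 to 21094 CPM, with no overlap). T and NK cell markers summed to 0.542 to 1.94 and 2.98 to 7.85 CPM, also with no overlap, and calls for this list are not given. Of 10 disease-associated microglia markers 0 were called, with sums of 8930 to 14443 and 11794 to 26837 CPM. The part of these in the result was not tested. Neither Samd9l nor Ifitm2 was called with libraries of the second title number 1 alone (adjusted p = 0.10 for Samd9l and 0.20 for Ifitm2). Irf7, Oasl2, Usp18 and Zbp1 differed by -0.31 ± 0.27, -0.29 ± 0.31, -0.31 ± 0.28 and -0.52 ± 0.34, and none of these passed. At 4 and 6 months and in the Mxo4 set 0 genes were called by edgeR and 0 by DESeq2, where 0.211%, 0.407% and 0.292% of all genes were called by edgeR. Unadjusted p was under 0.05 for 9, 5 and 2 genes (5.07%, 7.69% and 6.76% of all genes), led by Samd9l at 4 months (1.0 ± 0.35), Trim30a at 6 months (0.40 ± 0.12) and Gbp7 in the Mxo4 set (-0.53 ± 0.22). The Gbp7 difference includes APPPS1_12m_Mxo4 replicate 56, and without that library it was 0.06 (edgeR adjusted p = 0.99).

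Loss of Nlrp3 without the transgenes, NLRP3 minus WT, gave 0 called genes at 4, 6 and 12 months and in the Mxo4 set, where 0.372%, 0.468%, 1.74% and 0.101% of all genes were called. Unadjusted p was under 0.05 for 4, 6, 4 and 6 of the 44 genes (8.67%, 9.84%, 15.6% and 5.33% of all genes), and DESeq2 called 0, 1, 0 and 0. Medians were 0.14, -0.26, -0.18 and -0.27, against all-gene medians of at most 0.01 in size. The smallest p values were those of Parp14 at 4 months (-0.44 ± 0.16), Mx2 at 6 months (-0.64 ± 0.16, edgeR adjusted p = 0.0515), Ddx58 at 12 months (-0.37 ± 0.12, adjusted p = 0.096) and Mx1 in the Mxo4 set (-0.87 ± 0.33). Zbp1 differed by 0.99 ± 0.38 at 4 months and by -0.90 ± 0.37 at 6 months, and neither passed. Irf7 differed by -0.02 ± 0.29, -0.50 ± 0.27, -0.20 ± 0.33 and -0.25 ± 0.34, and Oasl2 by 0.19 ± 0.34, -0.44 ± 0.32, -0.08 ± 0.39 and -0.44 ± 0.40, in that order of ages.

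Age steps were compared within each genotype. In APPPS1 mice, 6m minus 4m had 1 gene called higher and 0 lower, where 0.257% and 0.131% of all genes were, although 23 genes were at an unadjusted p under 0.05 (11.9% of all genes) and the median was 0.74. That gene, Lgals3bp, had 488, 528 and 497 CPM at 6 months and 194, 196 and 217 CPM at 4 months, a rise of 1.34 ± 0.33 (edgeR adjusted p = 0.0447), and each fit without 1 library left 0 calls. From 6 to 12 months 25 genes were called higher and 0 lower in APPPS1 mice, where 9.1% and 6.77% of all genes were, with a median of 0.86. The largest rises were those of Ifi27l2a by 2.01 ± 0.50, Ifitm2 by 1.38 ± 0.28, Ifitm3 by 1.34 ± 0.29, Usp18 by 1.33 ± 0.32, Oasl2 by 1.23 ± 0.36 and Oas1a by 1.17 ± 0.34 (edgeR adjusted p = 0.0066, 0.0017, 0.0026, 0.0054, 0.017 and 0.016). Without APPPS1_6m replicate 22, 6 genes were called higher, where 2.37% of all genes were. With libraries of the second title number 1 alone 0 were called by edgeR, where 0.014% of all genes were called higher. Of 10 disease-associated microglia markers 7 were called higher at this step, and of 7 neuronal markers 7 were called lower, with sums of 12.2 to 63.8 CPM in APPPS1_12m and 129 to 252 CPM in APPPS1_6m. The disease-associated sums were 11794 to 26837 and 6359.8 to 7934 CPM. Border-associated macrophage sums were 167 to 382 and 412 to 619 CPM. Plasmacytoid dendritic cell sums were 38.3 to 103 and 22.02 to 36.8 CPM, and calls for these 2 lists are not given. Of 12 handling-response genes 4 were called higher (14787 to 21094 and 10026 to 11061 CPM, with no overlap). The part of these lists was not tested. In APPPS1_NLRP3 mice, 10 genes were called higher and 1 lower at 6m minus 4m, where 3.86% and 1.85% of all genes were, with a median of 0.47. Ifi27l2a rose by 1.43 ± 0.45, Lgals3bp by 1.30 ± 0.27, Oas1a by 1.16 ± 0.31, Isg15 by 0.99 ± 0.27, Mx1 by 0.93 ± 0.27 and Usp18 by 0.92 ± 0.29, and Gbp7 fell with -0.62 ± 0.19 (edgeR adjusted p between 0.0019 and 0.0446). Without APPPS1_NLRP3_6m replicate 31, which stood above its group mean in 42 genes, 1 gene was called higher, where 2.24% of all genes were, and without APPPS1_NLRP3_4m replicate 11, 17 were called higher, where 2.58% of all genes were. With sex as a further term 18 were called higher and 1 lower, where 4.43% and 1.99% of all genes were. Disease-associated microglia markers were called higher at this step in 10 of 10, with sums of 6154 to 10261 CPM in APPPS1_NLRP3_6m and 2635 to 2942 CPM in APPPS1_NLRP3_4m, and their part was not tested.

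From 6 to 12 months 0 genes were called in APPPS1_NLRP3 mice by edgeR and 0 by DESeq2, where 1.06% of all genes were called by edgeR. At an unadjusted p under 0.05 there were 4 genes (10.9% of all genes), led by Gbp7 at -0.53 ± 0.19, Eif2ak2 at 0.46 ± 0.17 and Gbp3 at -0.49 ± 0.19, and the median was 0.21. The difference between the genotypes in these age steps was not tested. In mice without the transgenes 0 genes were called at either step by edgeR. At 6m minus 4m, 5 NLRP3 and 5 WT genes were at an unadjusted p under 0.05 (15% and 8.51% of all genes), DESeq2 called 1 and 0, and 0.87% and 0.0805% of all genes were called. At 12m minus 6m, 4 NLRP3 and 3 WT genes were at an unadjusted p under 0.05 (17.3% and 7.12% of all genes), DESeq2 called 0 and 0, and 4.11% and 0.0% of all genes were called. The smallest p values were those of Zbp1 (-1.38 ± 0.38) and Herc6 (-0.43 ± 0.16) in NLRP3 mice and Ifit1 (0.73 ± 0.27) and Ifitm2 (-0.69 ± 0.27) in WT mice.

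Mxo4 libraries were also set against the untagged 12-month libraries of their genotype. In APPPS1 mice 14 genes were called lower and 0 higher, where 4.17% and 2.48% of all genes were, with a median of -0.71. The largest falls were those of Oasl1 with -1.60 ± 0.47, Ifit1 with -1.50 ± 0.28, Oas2 with -1.18 ± 0.38, Ifitm3 with -1.12 ± 0.26, Samd9l with -1.10 ± 0.31 and Mx1 with -1.08 ± 0.27 (edgeR adjusted p between 0.0014 and 0.0498). Without replicate 56 of the Mxo4 set 3 genes were called lower (Ifit1, Gbp2 and Gbp3), where 2.4% of all genes were, and with sex as a further term 1 was, where 1.0% were. Of 7 endothelial markers 5 were also called lower (97.3 to 212 CPM in APPPS1_12m_Mxo4 and 276 to 427 CPM in APPPS1_12m), and their part was not tested. In APPPS1_NLRP3, NLRP3 and WT mice 0 genes were called by edgeR and 0 by DESeq2, where 1.09%, 6.8% and 0.216% of all genes were called by edgeR. Unadjusted, 1, 3 and 4 genes had p under 0.05 (13.4%, 20.5% and 10.4% of all genes), led by Eif2ak2 (-0.57 ± 0.19), Trim30a (0.38 ± 0.12) and Zbp1 (1.36 ± 0.44). With the tag the handling-response sum was 23052 to 27155 CPM in APPPS1_NLRP3 mice, against 7931 to 11915 CPM untagged. It was 31001 to 41040 against 11876 to 15488 CPM in NLRP3 mice and 26172 to 28811 against 20036 to 20258 CPM in WT mice. None of these pairs overlapped. In APPPS1 mice the sums overlapped, at 16576 to 32183 against 14787 to 21094 CPM. The part of handling was not tested.

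Libraries of 1 group deviated from their group mean across many of the genes at a time. APPPS1_12m_Mxo4 replicate 56 lay above its group mean in 5 of the 44 genes, with a mean deviation of -0.78 on the log2(CPM + 1) scale, and replicate 58 of the same group in 42 (0.54). APPPS1_NLRP3_4m replicate 11 lay above in 43 (0.55), APPPS1_NLRP3_6m replicate 31 in 42 (0.40), NLRP3_6m replicate 26 in 42 (0.34) and APPPS1_12m replicate 37 in 36 (0.35). Below their group means lay APPPS1_NLRP3_4m replicate 13, above in 2 genes (-0.36), and APPPS1_6m replicate 22, above in 2 (-0.28).

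Genes of the pathway outside the 44 were described from 7 lists. Of 13 ligand genes, Ifnb1 and Ifng had enough counts to be tested. Ifnb1, the gene of interferon beta, averaged 0.867 ± 0.604 CPM in APPPS1_NLRP3_12m and 0.639 ± 0.901 CPM in NLRP3_12m (SD, n = 4 each), and 2.53 ± 1.01 CPM in APPPS1_12m (n = 5) and 0.823 ± 0.196 CPM in WT_12m (n = 3). Its differences of 0.21 ± 0.69 without Nlrp3 and 1.57 ± 0.70 with it did not pass (edgeR adjusted p = 0.91 and 0.11). At 6 months without Nlrp3 it averaged 1.91 ± 1.09 CPM in APPPS1_NLRP3_6m (n = 5) and 0.457 ± 0.218 CPM in NLRP3_6m (n = 4), a rise of 2.05 ± 0.66 (adjusted p = 0.04). Neither ligand was called in APPPS1_12m minus WT_12m or APPPS1_NLRP3_12m minus NLRP3_12m. Ifng, the gene of interferon-gamma, averaged 0.0152 ± 0.0304 CPM in APPPS1_NLRP3_12m and 0.0608 ± 0.0703 CPM in NLRP3_12m, with 3 of the 4 APPPS1_NLRP3_12m libraries at 0, and 0.374 ± 0.251 CPM in APPPS1_12m and 0.127 ± 0.0583 CPM in WT_12m (edgeR adjusted p = 0.47 and 0.28). In APPPS1_NLRP3_12m minus APPPS1_12m, Ifng was called lower and Ifnb1, at -1.46 ± 0.63, was not (edgeR adjusted p = 0.0439 and 0.14). T and NK cell markers summed to 0.542 to 1.94 CPM in APPPS1_NLRP3_12m and 2.98 to 7.85 CPM in APPPS1_12m, with no overlap. The part of these cells in the Ifng difference was not tested. In APPPS1_12m_Mxo4 minus APPPS1_12m, Ifnb1 was called lower at -2.07 ± 0.65 and Ifng was not called (adjusted p = 0.0442 and 0.2). Ifng stayed below 1 CPM in every library and Ifnb1 below 4 CPM, so these differences rest on few counts.

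Among receptors for interferons at 12 months, Ifnar2, a subunit of the type I receptor, rose by 0.49 ± 0.11 without Nlrp3 and 0.72 ± 0.11 with it (edgeR adjusted p = 0.0012 and 2.8e-06). Ifngr1, a receptor subunit for interferon-gamma, fell with Nlrp3 at -0.49 ± 0.11 (adjusted p = 5.3e-04). Of 13 sensors and adaptors upstream of interferon found in the file, 1 was called higher and 2 lower in each setting, where 5.84% and 3.07% of all genes were called higher and lower without Nlrp3, and 11.5% and 6.92% with it. The 1 of 13 is near the share of all genes in both settings, and the lists that follow are read against the same shares. Dhx58, the sensor LGP2, rose by 0.83 ± 0.19 without Nlrp3 and 0.71 ± 0.19 with it, and Tmem173, the adaptor STING, fell with -0.58 ± 0.12 without Nlrp3 and -0.59 ± 0.12 with it (edgeR adjusted p = 0.0028, 0.0066, 8.7e-04 and 3.4e-04). Of 4 interferon regulatory factors outside the 44, 0 were called without Nlrp3, and with it 2 were higher (Irf8 at 0.61 ± 0.12 and Irf1 at 0.42 ± 0.15) and 2 lower (Irf4 at -0.95 ± 0.22 and Irf2 at -0.46 ± 0.12).

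Of 10 tested brakes on the response, 3 were called higher and 1 lower without Nlrp3, and 3 higher and 0 lower with it, among them Rnaseh2b, a subunit of RNase H, which removes RNA from DNA hybrids, at 0.63 ± 0.17 without Nlrp3 and 1.11 ± 0.18 with it (edgeR adjusted p = 0.011 and 4.2e-06). Of 15 tested genes that lean to interferon-gamma, 1 was called higher without Nlrp3 (Irgm1, 0.51 ± 0.12), and 4 higher and 1 lower with it (Irgm2, -0.53 ± 0.13). Of 39 other interferon-induced genes tested, 13 were called higher and 0 lower without Nlrp3 (5.84% and 3.07% of all genes), and 24 higher and 0 lower with it (11.5% and 6.92%). Cd274, which encodes the checkpoint ligand PD-L1, rose by 1.95 ± 0.26 without Nlrp3 and 1.98 ± 0.27 with it, and Cxcl10, a chemokine for T cells, by 1.03 ± 0.22 without Nlrp3 and 1.69 ± 0.23 with it (edgeR adjusted p at most 8.5e-04). Medians over these 39 genes were 0.56 without Nlrp3 and 0.87 with it, below the 1.09 and 1.30 of the 44 genes.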

How the data were processed

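The deposited values were raw gene counts in 1 matrix. Per the labels' protocols, the authors made libraries from 10 ng RNA with a SMART-Seq v4 kit in 2 batches, in pools of 7 to 8, and sequenced paired reads of 125 bp. The submitters' processing notes name Trimmomatic, TopHat, HTSeq and mm10, with no versions. No molecular identifiers or strand marking are stated, so counts may hold PCR copies and reads of overlapping genes.

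Symbols came from GENCODE vM21 (GRCm38, the assembly of mm10), and 95 identifiers without a symbol held 0.00453% of counts. Libraries under 100000 counts were left out. The 61 others were fitted at once with edgeR 4.0.16 (R 4.3.3): TMM factors, filterByExpr (minimum count 10, minimum total 15), with group and the second number of the title, which takes 2 values, in the design. The quasi-likelihood F test was two-sided, with Benjamini-Hochberg adjustment over 19881 genes within each of 32 comparisons and a threshold of 0.05. SE is the size of the log2 difference over √F. On simulated counts for APPPS1_12m minus WT_12m (19327 genes), 57% of changes of log2 1 and 94% of log2 2 were recovered, with 7 false calls.

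The 44 genes and the pathway and marker lists were chosen with earlier results of these data known, so no count over them is independent evidence. The count over receptors and signal transducers, with 1 gene of that list, is not reported here. Genes were named by role, by the largest called changes (up to 6 in each direction), by the 3 smallest p where none was called, and otherwise after their values were seen. Alternatives were DESeq2 1.42.0, RLE factors, no filter, other terms (sex, title numbers), every library kept, and leaving out each library. Counts called by DESeq2 are given without the share of all genes that it called.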

Additional observations from a re-analysis of the deposited data

Results flagged for a closer look

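In 150 groups of 4 or 5 libraries examined, 5 values lay far from the rest of their group by a gap test that flags about 1 in 20 groups by chance. Ifitm2 was 53.3 CPM in APPPS1_12m replicate 38, against 13.8 to 23.6 CPM in the other libraries of the group. Gbp7 was 115 CPM in APPPS1_12m_Mxo4 replicate 56, against 35.1 to 41.2 CPM in the others. The mean over the 44 genes was 3.98 log2(CPM + 1) in WT_4m replicate 5, against 4.23 to 4.25 in the others. In WT_6m replicate 19, Bst2 was 66.2 CPM, against 40.1 to 41.3 CPM in the others, and Ifi27l2a was 25.8 CPM, against 7.47 to 11.8 CPM.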

How the results depend on the processing

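No paired analysis was possible because no replicate number is shared by libraries of different groups. The counts in this section describe how far the results move with the setting. They are given without the share of all genes called, so they are not read against a background. Leaving out 1 library at a time, the count of called genes ran between 30 and 36 in APPPS1_12m minus WT_12m, 30 and 33 in APPPS1_NLRP3_12m minus NLRP3_12m, and 18 and 26 in APPPS1_NLRP3_6m minus NLRP3_6m. It ran between 9 and 23 in APPPS1_NLRP3_12m_Mxo4 minus NLRP3_12m_Mxo4, 2 and 22 in APPPS1_12m_Mxo4 minus WT_12m_Mxo4, 1 and 7 in APPPS1_6m minus WT_6m, 2 and 5 in APPPS1_NLRP3_12m minus APPPS1_12m, 0 and 1 in the 12-month interaction, and 0 and 1 in NLRP3_6m minus WT_6m. For age and tag it ran between 0 and 0 in APPPS1_6m minus APPPS1_4m, 6 and 25 in APPPS1_12m minus APPPS1_6m, 1 and 17 in APPPS1_NLRP3_6m minus APPPS1_NLRP3_4m, 0 and 1 in APPPS1_NLRP3_12m minus APPPS1_NLRP3_6m, 3 and 23 in APPPS1_12m_Mxo4 minus APPPS1_12m, and 0 and 1 in NLRP3_12m_Mxo4 minus NLRP3_12m.

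DESeq2 called 4 genes in APPPS1_6m minus WT_6m, 1 in the 12-month interaction, 1 in NLRP3_6m minus WT_6m, 4 in APPPS1_NLRP3_12m minus APPPS1_12m, 5 in APPPS1_6m minus APPPS1_4m, 17 in APPPS1_NLRP3_6m minus APPPS1_NLRP3_4m, 1 in NLRP3_6m minus NLRP3_4m and 23 in APPPS1_12m_Mxo4 minus APPPS1_12m. RLE factors gave 1 in the 12-month interaction. Keeping every library gave 1 in NLRP3_6m minus WT_6m and 0 in APPPS1_6m minus APPPS1_4m. A term for the first title number gave 0 in APPPS1_6m minus APPPS1_4m, 2 in APPPS1_NLRP3_6m minus APPPS1_NLRP3_4m, 4 in APPPS1_12m_Mxo4 minus APPPS1_12m and 1 in NLRP3_12m_Mxo4 minus NLRP3_12m. Without the term for the second title number the counts were 5 in APPPS1_12m_Mxo4 minus WT_12m_Mxo4, 0 in APPPS1_6m minus APPPS1_4m and 1 in NLRP3_12m_Mxo4 minus NLRP3_12m.

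With no filter on low counts, 35295 genes were fitted with an infinite prior degree of freedom for the spread (5.70 as reported), so every gene shares 1 spread there. The transgene counts were then 13 at 6 months and 19 in the Mxo4 set with Nlrp3, and 2 at 4 months without it. Interactions gave 9 at 6 months, 4 at 12 months and 2 in the Mxo4 set. NLRP3 minus WT gave 6, 5, 1 and 2, and APPPS1_NLRP3 minus APPPS1 gave 9, 5, 11 and 1, at 4, 6 and 12 months and in the Mxo4 set. At 6m minus 4m there were 24 in APPPS1, 24 in APPPS1_NLRP3, 5 in NLRP3 and 5 in WT, at 12m minus 6m 6 in APPPS1_NLRP3, 4 in NLRP3 and 4 in WT, and for the tag 30 in APPPS1, 3 in APPPS1_NLRP3, 3 in NLRP3 and 5 in WT.

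Sex as a further term gave 5 in APPPS1_6m minus WT_6m, 15 in APPPS1_12m_Mxo4 minus WT_12m_Mxo4, 1 in APPPS1_NLRP3_6m minus APPPS1_6m, 1 in APPPS1_NLRP3_12m minus APPPS1_12m, 19 in APPPS1_NLRP3_6m minus APPPS1_NLRP3_4m and 1 in APPPS1_12m_Mxo4 minus APPPS1_12m. The sex term was estimated from groups holding both sexes, and APPPS1_NLRP3_12m and APPPS1_12m each held 1 sex. With libraries of the second title number 1 alone, which allowed 28 comparisons, counts were 17 in APPPS1_12m minus WT_12m, 15 in APPPS1_12m_Mxo4 minus WT_12m_Mxo4, 0 in APPPS1_NLRP3_12m minus APPPS1_12m, 0 in APPPS1_6m minus APPPS1_4m, 0 in APPPS1_12m minus APPPS1_6m, 2 in APPPS1_NLRP3_6m minus APPPS1_NLRP3_4m and 0 in APPPS1_12m_Mxo4 minus APPPS1_12m. With number 2 alone they were 3 in APPPS1_6m minus WT_6m, 0 in APPPS1_12m_Mxo4 minus WT_12m_Mxo4, 7 in APPPS1_NLRP3_6m minus NLRP3_6m, 13 in APPPS1_NLRP3_12m minus NLRP3_12m, 3 in the Mxo4 interaction, 4 in APPPS1_NLRP3_12m minus APPPS1_12m, 19 in APPPS1_NLRP3_12m_Mxo4 minus APPPS1_12m_Mxo4, 0 in APPPS1_6m minus APPPS1_4m, 12 in APPPS1_12m minus APPPS1_6m, 2 in APPPS1_NLRP3_6m minus APPPS1_NLRP3_4m and 32 in APPPS1_12m_Mxo4 minus APPPS1_12m. There APPPS1_12m_Mxo4 is replicate 56 alone, assumed to vary like the other groups, and against WT_12m_Mxo4 the differences turned to -0.51 for Oasl2, -0.60 for Oas1a, -0.76 for Usp18, -0.63 for Rtp4, -0.52 for Ifi27l2a, -0.38 for Lgals3bp, 0.12 for Gbp3 and 0.18 for Gbp7. Among called genes no other named gene turned its direction in these fits, and the statement does not cover genes that were not called. The other scaling moved the median of all genes by less than 0.05 in every comparison, and the causes of these changes were not tested beyond the fewer libraries in the split fits. Depth limits Oas3, Ifi44, Zbp1 and Ifnb1, which lay at a few CPM in many libraries.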
